A study of Mus musculus with 321 samples.

Results

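Chromatin opening by Tcf-1 outside the T lineage was examined in NIH3T3 cells that carried a retrovirus and whose peak lists are tagged day 4. NIH3T3 is an established mouse embryonic fibroblast line, given in the labels as of NIH/Swiss origin. The 4 libraries, of 321 samples in the series, were 2 of cells carrying a retrovirus that expresses Tcf-1 (Tcf-1 RV, replicates 3 and 4) and 2 of cells carrying the same kind of virus without it (Empty RV, replicates 3 and 4). The line has no other stated alteration, the labels do not name the promoter driving Tcf-1, and both arms had received virus. The day comes from tags in the names of the deposited lists and not from the labels, and "day 4" is used here in that sense; the event it counts from is not stated. The libraries were chosen by that tag. Their peak lists were merged wherever peaks shared at least 1 bp, which gave 71332 regions. A region was called gained if both Tcf-1 RV lists and no Empty RV list had a peak there, and lost in the reverse case. By this rule 1503 regions were gained, 2.11% of all merged regions, and 2467 were lost, 3.46%.

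Tcf-1 is encoded by Tcf7 and belongs to the TCF/LEF family of HMG-box proteins, which bind a short word of the form CTTTGAA or CTTTGAT and bend the DNA there. In the thymus it is needed for the T lineage programme, and with beta-catenin it carries Wnt signals to target genes. ATAC-seq maps open chromatin by letting a transposase cut where DNA is not wrapped in nucleosomes. H3K27me3 is the histone mark of Polycomb repression, and H3K9me3 marks constitutive heterochromatin.

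The sequences shown are of promoters whose window a gained region overlapped and which held the TCF word. RefSeq windows of GRCm38.p6, from 250 bases before to 50 after each gene start, were overlapped by gained regions at 17 promoters, of which 6 lay in a gained region that also had a Tcf-1 ChIP-seq summit. Of those 6, 3 held CTTTGAA on either strand and are shown 5′ to 3′ on the strand of the gene, with the word, here always in its reverse complement TTCAAAG, in capitals. For comparison the promoter of Otos is given, the only 1 of 49 promoter windows overlapped by lost regions with either TCF word, here CTTTGAT.
Ccl8: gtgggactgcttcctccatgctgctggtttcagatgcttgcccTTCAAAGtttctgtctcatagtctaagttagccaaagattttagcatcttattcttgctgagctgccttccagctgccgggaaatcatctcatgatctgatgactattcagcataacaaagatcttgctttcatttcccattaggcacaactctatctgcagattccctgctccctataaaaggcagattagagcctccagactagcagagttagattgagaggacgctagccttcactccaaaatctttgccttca
Gm33424: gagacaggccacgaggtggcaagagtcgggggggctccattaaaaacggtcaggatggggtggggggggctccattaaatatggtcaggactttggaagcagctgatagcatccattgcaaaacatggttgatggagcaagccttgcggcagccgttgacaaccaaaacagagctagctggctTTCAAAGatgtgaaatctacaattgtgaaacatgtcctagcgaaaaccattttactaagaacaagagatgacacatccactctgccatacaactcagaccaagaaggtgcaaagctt
Gm9564: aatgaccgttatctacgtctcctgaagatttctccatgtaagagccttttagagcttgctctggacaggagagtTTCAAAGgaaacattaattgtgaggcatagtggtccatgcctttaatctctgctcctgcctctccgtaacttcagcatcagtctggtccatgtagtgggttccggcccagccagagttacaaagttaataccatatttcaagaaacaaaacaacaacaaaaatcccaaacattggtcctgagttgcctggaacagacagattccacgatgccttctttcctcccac
Otos: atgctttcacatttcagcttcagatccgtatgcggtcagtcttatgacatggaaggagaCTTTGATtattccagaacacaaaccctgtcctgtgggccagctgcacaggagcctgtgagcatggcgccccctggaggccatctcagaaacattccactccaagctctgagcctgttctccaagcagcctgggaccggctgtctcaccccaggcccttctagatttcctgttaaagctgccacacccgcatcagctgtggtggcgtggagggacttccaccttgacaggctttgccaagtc

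The Ccl8 promoter, chr11:82114935-82115234 on the plus strand, lay wholly inside a gained region. Ccl8 encodes a chemokine that attracts monocytes. The Tcf-1 summit was at base 54 of the window and the word began at base 44, with 7 bp between the summit and the middle of the word. Over the gained regions with a summit, the summit lay a median of 43 bp below the centre in coordinate (−43 bp), and the source of that offset was not tested. The peak measured 0.207 and 0.406 kb in Tcf-1 RV replicates 3 and 4, and there was none in either Empty RV list. The summit's score was low, at 8.05, and no day 2 list had a peak there. The Gm33424 window, chr13:52985715-52986014 on the plus strand, was met by peaks of 0.223 and 0.442 kb in the Tcf-1 RV lists and by none in the Empty RV lists. The Gm9564 window, chr8:112027454-112027753 on the minus strand, was met by peaks of 0.212 and 0.411 kb in the Tcf-1 RV lists, again with no Empty RV peak. At these promoters the summits, of scores 55.5 and 86.2, lay 0.119 and 0.348 kb from the middle of the word, beyond the downstream end of each window. At Gm9564 the word itself lay outside the gained region, which covered only the downstream part of the window. The Otos window, chr1:92648792-92649091 on the minus strand, held no summit.

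Among all 32817 promoter windows, 8.65% held CTTTGAA or CTTTGAT on either strand. The share was 17.6% of the 17 promoters of gained regions (95% Wilson interval 6.19% to 41.03%), 2.04% of the 49 of lost regions (0.361% to 10.7%) and 5.23% of the 10041 promoters open in all 4 lists. The intervals of the gained and lost promoters overlapped. Words of other factors were counted on both strands too. The AP-1 word TGAGTCA was in 1 gained and 3 lost promoters, or 5.88% and 6.12%, against 5.20% of all windows. GGAATG, the TEAD word, was in 23.5% of gained and 12.2% of lost promoters, against 14.7% of all windows. TGTGGT, the RUNX word, was in 23.5% of gained (9.56% to 47.3%) and 38.8% of lost promoters (26.4% to 52.8%), against 16.8% of all windows. The 49 lost promoters are windows of 45 genes. Some windows overlap, as those of Gm30624 and of Gm35337 with Serpinf1, and among gained ones those of Gm41956 with Lmod1. The same copy of a word can then be counted in more than 1 window, and the intervals do not allow for that. The reference used here has sequence for promoters only, so most gained regions, which lay away from promoters, could not be read for words.

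The 4 lists differed in length and in the share of peaks over Tcf-1 summits. Tcf-1 RV replicates 3 and 4 had 36583 and 62639 peaks, and Empty RV replicates 3 and 4 had 46819 and 58026. The arms overlapped (49611 ± 18424 in Tcf-1 RV and 52423 ± 7925 in Empty RV, SD, n = 2 each, exact permutation p = 1). The lists carry no height and no read depth, so a region either had a peak or had none, and fewer cells with an open site cannot be told apart from less signal per cell. Nothing in the labels says that replicates were separate cultures, and the p-values then cover the spread of these libraries alone. Intervals on shares cover counting error only. Replicate 3 of both arms carries the initials JJ and replicate 4 the initials MK, and the 2 pairs also carry different run tags. Of 14 fibroblast markers, 10 had a peak within 1 kb of a gene end in all 4 lists, and Pdgfra and Prrx1 had one in none. Of 8 T cell markers, 7 had such a peak in no list, and Cd247 had one in both MK lists only. None of 4 endothelial markers had one. Ebf1 alone of 4 B cell markers and Lyz2 alone of 5 myeloid markers had one in all 4 lists. The myeloid markers Spi1 and Csf1r had one in every list but Tcf-1 RV replicate 3, and Krt8, of 4 epithelial markers, had one in Tcf-1 RV replicate 4 and Empty RV replicate 3.

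The share of peaks that held a Tcf-1 summit was 32.2% and 27.99% in Tcf-1 RV replicates 3 and 4, and 24.8% and 22.9% in Empty RV replicates 3 and 4. The summits come from 1 pooled list of 40562 made from Tcf-1 RV cells and tagged day 2. Both Tcf-1 RV libraries lay above both Empty RV libraries, and the arms averaged 30.1% ± 2.97 and 23.8% ± 1.39. The difference of 6.24 points had an exact two-sided permutation p of 0.333, the smallest that 2 libraries against 2 can give (1 after Benjamini-Hochberg adjustment over 7 measures). Within pairs it was 7.36 points for JJ and 5.12 points for MK. For the other shares the arms overlapped. Gene-end peaks made up 23.3% of the Tcf-1 RV lists and 21.6% of the Empty RV lists, and peaks in H3K27me3 islands 2.41% and 2.39%.

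With a peak asked for in both lists of an arm, most gained regions held a Tcf-1 summit and few lost regions did. Of the 1503 gained regions, 932 held a summit, 62.01% (59.5% to 64.4%). Of the 2467 lost regions, 4.62% did (3.86% to 5.52%), which is under the 25.4% of all merged regions. Lost regions have no Tcf-1 RV peak by rule, and the summits were mapped in Tcf-1 RV cells. How far the low share follows from that rule was not tested. Regions in both Tcf-1 RV lists and 1 Empty RV list held a summit in 39.4% of cases, and those in all 4 lists in 34.4%. The share was 27.8% of regions in 1 Tcf-1 RV list only and 4.39% of those in 1 Empty RV list only. A low share was thus not particular to lost regions. Without Tcf-1 RV replicate 3, the shorter of its arm, 32.2% of gained regions held a summit. At each width gained regions had the highest share, then all merged regions, then lost ones. At 200 to 300 bp, 40.7% of gained, 4.22% of lost and 12.9% of all merged regions held a summit. At 400 to 600 bp the shares were 76.8%, 6.37% and 39.1%. Within the JJ pair, 48.2% of the 3328 regions of the Tcf-1 RV list alone and 11.1% of the 13598 of the Empty RV list alone held a summit. Within the MK pair the shares were 31.5% of 12776 and 4.42% of 8120. The larger of the 2 sets was thus the Empty RV one in JJ and the Tcf-1 RV one in MK, while the summit share was higher on the Tcf-1 RV side in both. Of regions in both lists of a pair, 34.4% held a summit in JJ and 27.7% in MK.

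**Figure D1:**
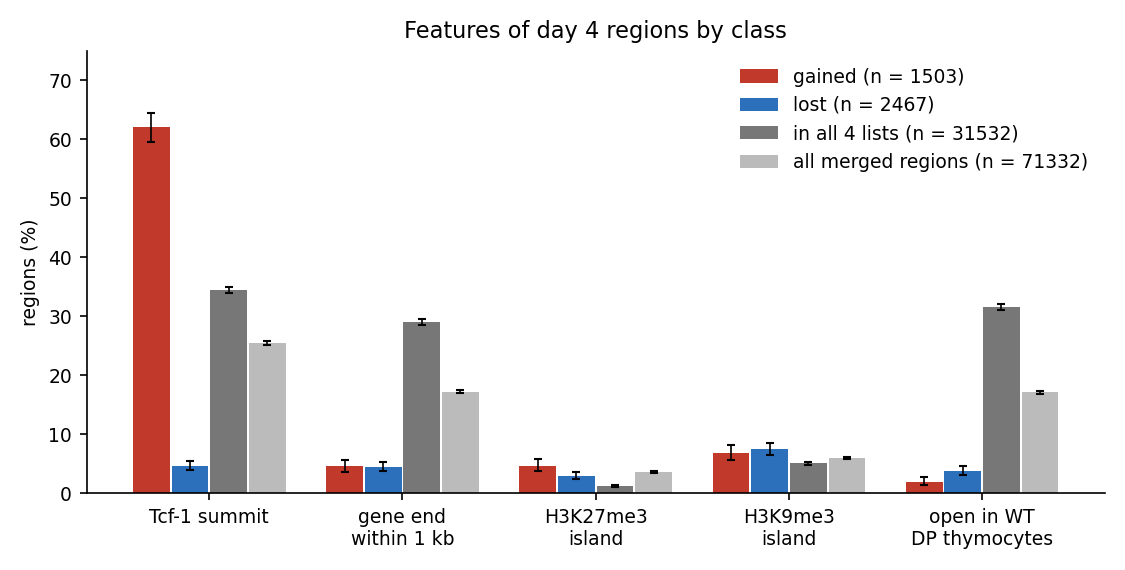
Bars give the percentage of day 4 regions of each class (gained, lost, in all 4 lists, all merged) that have each feature on the x axis, with 95% Wilson intervals, and n in the legend counts regions. A Tcf-1 summit was in 62.01% of gained and 4.62% of lost regions, while both classes were rarely at gene ends (4.52% and 4.46%).

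Summits in gained regions scored higher than those elsewhere. The score, whose scale is not stated, had a median of 39.8 over the gained regions, 15.3 over the lost and 23.2 over those in all 4 lists. It was 14.1 for the 21859 summits outside every day 4 region. Within gained regions the summit lay a median of 52 bp from the centre, and 84.4% lay within 100 bp of it. In regions of all 4 lists, which were wider, the median was 67 bp and 67.5% lay within 100 bp.

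**Figure D2:**
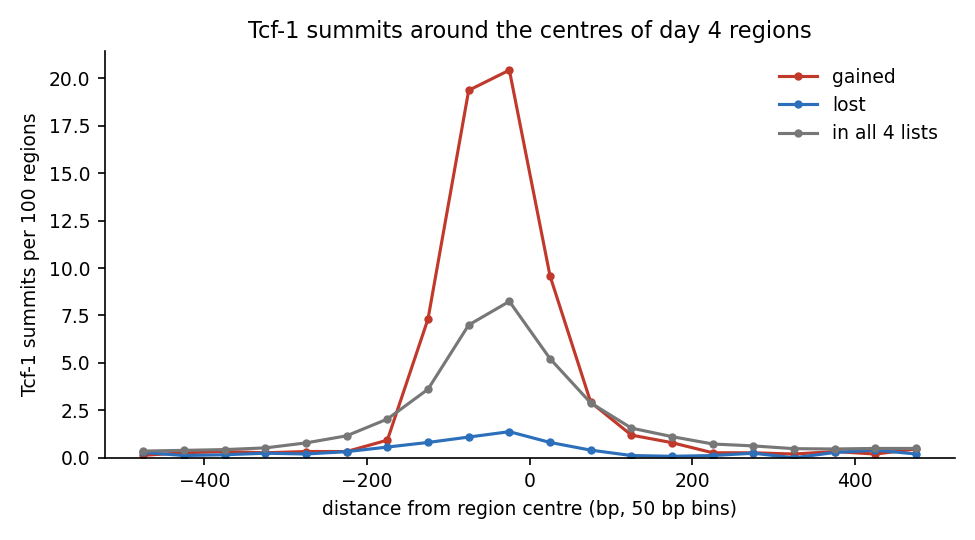
Lines give the number of Tcf-1 summits per 100 regions in 50 bp bins of distance from the region centre (x axis, bp), for gained, lost and constantly open regions. The gained line is highest beside the centre, and its bins just below the centre hold more summits than those just above, as do those of the other classes.

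Read from the summits, opening in both Tcf-1 RV lists was uncommon and went with the score. Of the 26428 summits with no Empty RV peak on day 4, 1057 had a peak in both Tcf-1 RV lists, 4.00% (3.77% to 4.24%). Tcf-1 RV replicate 3 had 36583 peaks against 62639 in replicate 4, and how far this share depends on the shorter list was not tested. With the summits split into 4 score groups of about equal size, the share from the lowest to the highest group was 0.740%, 2.18%, 3.56% and 11.2%. In the opposite direction, of 11411 summits with a peak in both Empty RV lists, 1.22% had none in either Tcf-1 RV list. In the same groups this share was 1.81%, 1.77%, 1.23% and 0.522%. High-scoring summits were thus the ones most often with a peak in the Tcf-1 RV lists alone and the ones least often without a Tcf-1 RV peak. The summits and scores come from Tcf-1 RV cells, as do the peaks that define opening. How far the score itself depends on openness in that arm was not tested.

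**Figure D3:**
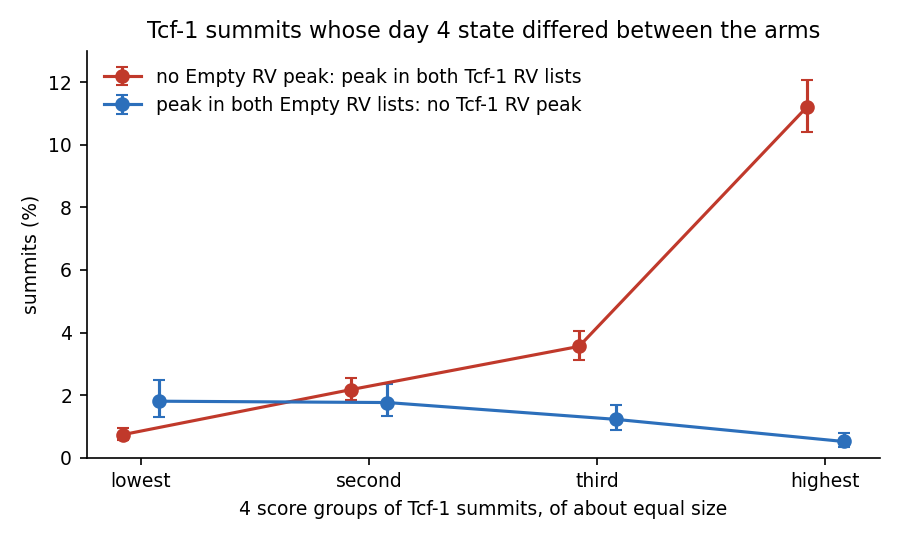
Points give the percentage of Tcf-1 summits, in 4 score groups of about equal size (x axis), that had no Empty RV peak and a peak in both Tcf-1 RV lists, and the percentage with a peak in both Empty RV lists and none in the Tcf-1 RV lists. Bars are 95% Wilson intervals, and the first share is 11.2% in the highest group against 0.740% in the lowest.

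Peaks in called regions had a lower median width than the whole list in Tcf-1 RV replicate 3 and both Empty RV libraries, and a higher one in Tcf-1 RV replicate 4. In gained regions the peak had a median width of 0.236 kb in Tcf-1 RV replicate 3, where 80.3% of these peaks were under 300 bp, and of 0.339 kb in replicate 4, where 34.8% were. Over the whole lists the medians were 0.318 and 0.328 kb. In lost regions the medians were 0.228 kb in Empty RV replicate 3 and 0.247 kb in replicate 4, against 0.317 and 0.318 kb over the whole lists. No list has a peak under 200 bp. With peaks of at least 300 bp only, 816 regions were gained and 1108 were lost, of which 73.8% and 13.5% held a summit. Leaving out Tcf-1 RV replicate 3, the shorter of its arm, gave 11785 gained regions, with a summit in 32.2%, and 10272 regions had a peak in Tcf-1 RV replicate 4 alone. Leaving out Empty RV replicate 4 gave 3206. The lost count was 11782 without Tcf-1 RV replicate 4 and 7986 without Empty RV replicate 3.

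Both classes were distal, and few of their regions were open in thymocytes. A region lay within 1 kb of an end of a protein-coding gene in 68 gained (4.52%) and 110 lost cases (4.46%), against 28.98% of regions in all 4 lists. These shares were 7.08% of gained regions without Empty RV replicate 4 and 8.69% of lost regions without Tcf-1 RV replicate 4. Regions in 1 Tcf-1 RV list only and 1 Empty RV list only were at gene ends in 6.81% and 6.78% of cases. The median distance to a RefSeq start was 28701 bp for gained and 29331 bp for lost regions, against 13715 bp for those in all 4 lists. Open in wild-type CD4+ CD8+ (DP) thymocytes, by a peak in both wild-type lists of the series, were 1.93% of gained and 3.81% of lost regions, against 17.1% of all merged regions. The gained share was 2.91% without Tcf-1 RV replicate 3 and 4.59% without Empty RV replicate 4, and the lost share was 8.21% without Tcf-1 RV replicate 4. Among distal regions alone the shares were 1.60%, 3.39% and 7.81%. At any position, 3.10% of regions in 1 Tcf-1 RV list only and 4.48% of those in 1 Empty RV list only were open in thymocytes. Low shares at gene ends and in thymocytes were thus not particular to gained and lost regions. Of the 29 gained regions open in thymocytes, 21 had a peak in no Tcf-1 knockout list (72.4%, 54.3% to 85.3%), as had 66 of the 94 lost ones (70.2%), against 18.1% of the regions in all 4 lists that were open in thymocytes. These sets are unlike in position: 23 of the 29 gained and 80 of the 94 lost were distal, against 2919 of the 9941 in all 4 lists. The knockout shares were not computed for distal regions alone. Regions of both classes lay apart from each other: the median gap to the next of the same class was 321436 bp for gained and 229097 bp for lost, and 10 gained regions had a lost region within 1 kb.

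Some gained regions lay in repressive marks mapped in NIH3T3 cells without Tcf-1. In H3K27me3 islands were 70 gained regions (4.66%, 3.70% to 5.84%) and 72 lost (2.92%), against 3.54% of all merged regions and 1.18% of those in all 4 lists. Regions in 1 Tcf-1 RV list only were there in 7.23% of cases, and those in 1 Empty RV list only in 4.99%. For regions in 1 list of each arm the share was 5.78%. It was 4.29% in both Tcf-1 RV lists and 1 Empty RV list, and 4.36% in the reverse case. A share like that of gained regions was thus not particular to them. With peaks of at least 300 bp the shares were 2.33% of gained and 1.90% of lost regions, and with islands called in either replicate 9.18% and 6.65%. Without Empty RV replicate 3 the lost share was 4.55%. A summit was in 40 of the 70 gained regions (57.1%) and in none of the 72 lost, which allows a share of up to 4.17% (3 counts). In H3K9me3 islands were 6.85% of gained and 7.46% of lost regions, against 5.97% of all merged regions, and 66.99% of those gained held a summit (57.4% to 75.3%). Regions in 1 Tcf-1 RV list only and 1 Empty RV list only were in H3K9me3 islands in 6.28% and 8.38% of cases. The marked gained region with the highest summit score for H3K27me3 (164.6) was chr11:96404924-96405279, 36670 bp from Hoxb1, a patterning gene of the hindbrain. Its peak measured 0.253 and 0.356 kb in the Tcf-1 RV lists, with none in the Empty RV lists. For H3K9me3 it was chr12:8077289-8077775, with no protein-coding gene within 50 kb, which also had the highest score of all gained regions (249.3). Its peak measured 0.336 and 0.487 kb in the Tcf-1 RV lists, again with none in the Empty RV lists.

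The day 2 libraries, which the rule did not use, held most gained regions in the Tcf-1 RV arm alone. Tcf-1 RV replicates 1 and 2 had a peak at 67.3% and 66.3% of the gained regions, and Empty RV replicates 1 and 2 at 1.86% and 4.19%. The arms were far apart, by 63.8 points (exact permutation p = 0.333, the smallest possible with 2 against 2). Over all merged regions the shares were 56.9% and 55.3% in Tcf-1 RV and 30.7% and 45.7% in Empty RV, whose day 2 lists were shorter. Of the gained regions with a summit, 81.8% and 80.9% had a peak in the Tcf-1 RV lists and 1.61% and 3.76% in the Empty RV lists. Of those without one, 43.8% and 42.6% had a peak in the Tcf-1 RV lists and 2.28% and 4.90% in the Empty RV lists. Of the gained regions, 842 (56.02%, 53.5% to 58.5%) were in both day 2 Tcf-1 RV lists and neither day 2 Empty RV list, a pattern of 10.7% of all merged regions. A further 397 (26.4%) were in no day 2 list, against 34.6% of all merged regions.

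Lost regions were mostly in no day 2 list, and the day 2 lists of both arms held some of them. Day 2 Tcf-1 RV replicates 1 and 2 had a peak at 23.997% and 17.3% of them, and day 2 Empty RV replicates 1 and 2 at 14.998% and 32.9%, so the arms overlapped (difference −3.28 points, exact permutation p = 1, against 17.9 points over all merged regions). Of the lost regions, 87 (3.53%) were in both day 2 Empty RV lists and neither Tcf-1 RV list, against 0.509% of all merged regions. In no day 2 list were 1363 (55.2%) of the lost regions, against 34.6% of all merged regions. Matched between days, 840 of the 1503 gained regions (55.9%) overlapped 839 of the 9636 gained on day 2 (8.71%). For lost regions 87 of 2467 (3.53%) overlapped 86 of 391 (21.995%). The day 2 lists had 47623 and 43527 peaks in Tcf-1 RV and 22778 and 34601 in Empty RV. How far list lengths set the counts of each day and their overlap was not tested. No region gained on day 4 was lost on day 2, and 65 lost on day 4 (2.63%) were gained on day 2. Read from the day 2 lists, 2.59% of lost regions were in both Tcf-1 RV lists and neither Empty RV list. Over all merged regions that share was 10.7%, and the reverse pattern made up 0.509%.

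**Figure D4:**
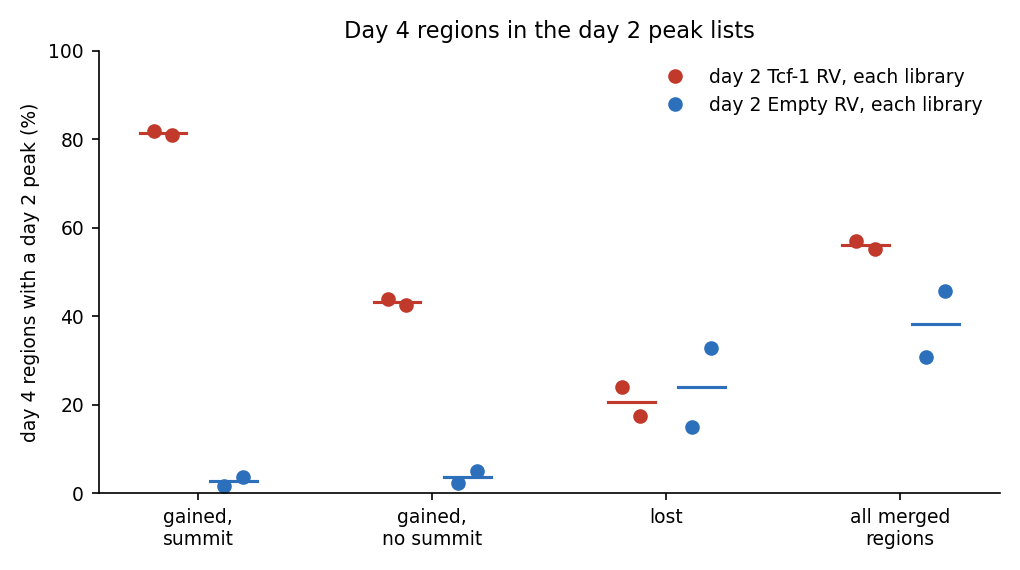
Dots give, for each day 2 library, the percentage of day 4 regions of a class that overlap a peak of its list, with the Tcf-1 RV libraries left of the Empty RV libraries and lines at their means (n = 2 each). Gained regions sit at 42.6% to 81.8% in the Tcf-1 RV lists and below 5% in the Empty RV lists, while the arms overlap for lost regions.

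Regions were assigned to the nearest protein-coding gene within 50 kb. Of 15726 genes with a region, 1108 had at least 1 gained (7.05%) and 1635 at least 1 lost (10.4%), and 288 had both. A gained region was assigned to 5865 genes without Tcf-1 RV replicate 3 and to 2163 without Empty RV replicate 4, and a lost one to 6049 without Tcf-1 RV replicate 4 and to 4283 without Empty RV replicate 3. Genes with a gained region were long, with a median of 79.2 kb, as were those with a lost one (65.6 kb), against 24.2 kb for all genes with a region. A longer gene covers more positions that are assigned to it, and no length-matched comparison was made. Most genes with a gained or lost region had a single one of that kind: 981 genes had 1 gained and 1420 had 1 lost.

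Tcf7 and Zfand3 had the most gained regions, with 4 each. At Tcf7, of 13 regions, the gained one at chr11:52256764-52257244 had a peak of 0.478 kb in each Tcf-1 RV list and none in the Empty RV lists. On day 2 its peak measured 0.498 and 0.507 kb in the Tcf-1 RV lists, with none in the Empty RV lists. Each of the 4 gained regions of Tcf7 held a summit, and the one at chr11:52281998-52282368 lay in H3K27me3. The virus itself carries a Tcf-1 coding sequence, so its DNA and the cellular gene cannot be told apart at Tcf7, in the peaks or in the summits. A lost region, chr11:52262063-52262330, lay beside the gained one at chr11:52261527-52261749. At Zfand3 the strongest summit of a gained region (score 234.7) was in chr17:30008447-30008846, whose peak measured 0.246 and 0.400 kb in the Tcf-1 RV lists, with none in the Empty RV lists. On day 2 it measured 0.494 and 0.450 kb in Tcf-1 RV, with none in Empty RV.

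The next genes by number of gained regions had 3 each. Ltbp1, which binds latent TGF-beta in the matrix, had 3 of 30, all with a summit. Aldh1a1, which makes retinoic acid from retinaldehyde, had 3 of 18, of which 2 held a summit. Its strongest, chr19:20566401-20566787, had peaks of 0.269 and 0.387 kb in the Tcf-1 RV lists and none in the Empty RV lists. Exoc4, a subunit of the exocyst, had 3 of 24, and Tasp1, the protease that cleaves MLL, had 3 of 10. Gm5544, Tprg and Tanc1 had 3 of 8, 13 and 17.

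Lost regions were most numerous at Pde4d and Ext1, with 5 each. Pde4d, a phosphodiesterase that degrades cAMP, lost 5 of 50 regions, all without a summit, and gained 1. One of them, chr13:109704624-109704996, had no Tcf-1 RV peak, and peaks of 0.340 and 0.370 kb in the Empty RV lists. On day 2 it had no Tcf-1 RV peak, and peaks of 0.233 and 0.290 kb in Empty RV. Ext1, which polymerises heparan sulfate, lost 5 of 35, 1 with a summit. That one, chr15:53160702-53161180, lay beside a gained region at chr15:53160003-53160427 and had day 2 peaks in all 4 lists. Immp2l, Sgms1 and Snx29 lost 4 each. Camta1, a calmodulin-binding transcription activator, lost 3 of 34 and gained 2.

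**Figure D5:**
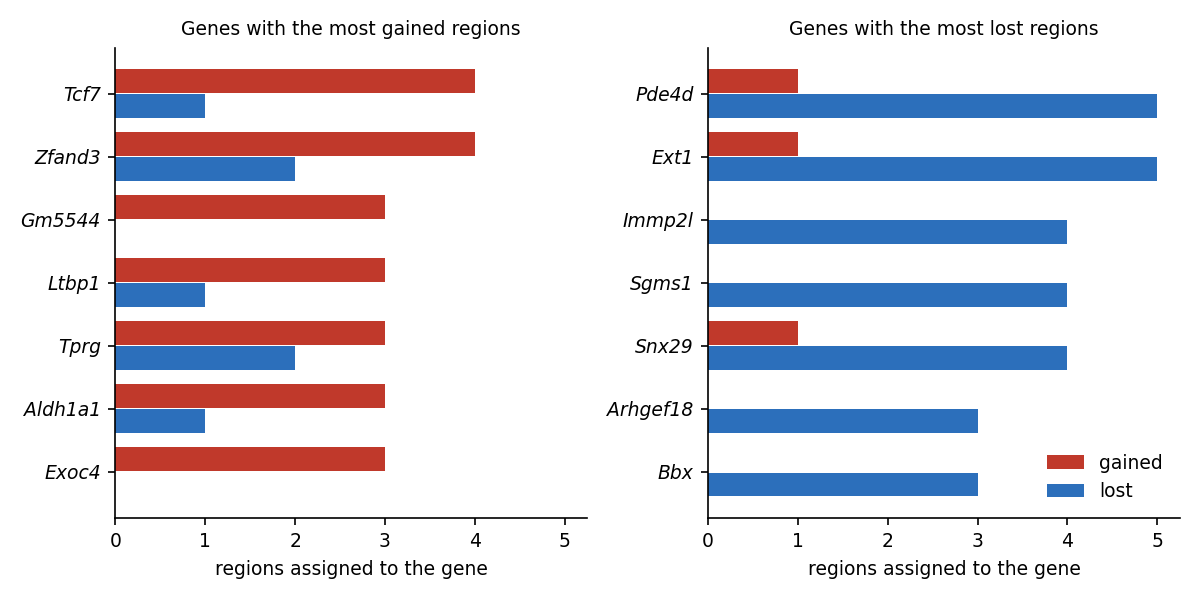
Bars give the number of gained (upper bar) and lost (lower bar) day 4 regions assigned to each of the 7 genes with the most gained (left panel) and the 7 with the most lost regions (right panel), ties ordered by summits and symbol. Tcf7 and Zfand3 have 4 gained regions each, and Pde4d and Ext1 have 5 lost and 1 gained each.

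Of the 10 gained regions with the highest summit scores, 6 had a protein-coding gene within 50 kb and 4 had none. After the one on chromosome 12 came chr13:104932085-104932580, 13324 bp from Rgs7bp, which anchors R7 RGS proteins at the membrane, with peaks of 0.2 and 0.496 kb in Tcf-1 RV and none in Empty RV. Others lay within Glrb (a subunit of the glycine receptor), Nsf (a vesicle fusion ATPase), Pard3 (cell polarity) and Hdac9 (a histone deacetylase). All 10 leading regions were in both day 2 Tcf-1 RV lists and in no Empty RV list of either day. The 5 lost regions with the highest summit scores all had a peak in day 2 Tcf-1 RV replicate 1. At Kat6a, a histone acetyltransferase, chr8:22873385-22873643 had no Tcf-1 RV peak on day 4, and peaks of 0.254 and 0.249 kb in Empty RV. On day 2 all 4 lists had a peak there, of 0.353 and 0.316 kb in Tcf-1 RV and of 0.205 and 0.264 kb in Empty RV.

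In the gene lists, counts were read against the 7.05% of genes with a gained and 10.4% with a lost region. Of 19 T lineage transcription factors with a region, 5 had a gained one (Tcf7, Ets1, Hes1, Notch1 and Runx1), and Tcf12, Hes1 and Tcf7 were among those with a lost one. Genes with a gained region made up 26.3% of the list and those with a lost one 21.1%. The list's genes had a median length of 46.1 kb and a median of 7 regions, against 2 for all genes with a region. Of the list's regions, 5.88% were gained, Tcf7 included. At Ets1, which encodes an ETS factor of lymphocytes, chr9:32758140-32758653 was 320 bp from the gene and had peaks of 0.236 and 0.514 kb in Tcf-1 RV and none in Empty RV. It had no summit and no day 2 peak. Of 13 T cell receptor chain and signalling genes, Zap70 had 1 gained and Fyn 3 lost regions, 7.69% of the genes in each direction. Of this list's regions, 2.13% were gained and 6.38% lost.

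Of 23 Wnt pathway genes, 4 had a gained (17.4%) and 3 a lost region (13.04%), 2.88% of the list's regions in each direction. The 4 with a gained one were Ccn4, Cd44, Sfrp2 and Tcf7l2. Each of these gained regions held a summit, which at Tcf7l2, the TCF4 gene of the same family, scored 110.9 in chr19:55792613-55792878. The peak there measured 0.2 and 0.266 kb in Tcf-1 RV, with none in Empty RV. At Ccn4, a matricellular Wnt target, the gained chr15:66878475-66878753 had a lost neighbour at chr15:66877865-66878118.

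Of 24 fibroblast genes, 5 had a gained region (Col3a1, Col5a2, Fbn1, Pdgfrb and Postn) and 3 a lost one (Col1a2, Lum and Twist2). The strongest was within Col5a2, a fibrillar collagen chain, at chr1:45380357-45380708 with a summit score of 178.9, and its peak measured 0.284 and 0.352 kb in Tcf-1 RV, with none in Empty RV. At Col1a2, chr6:4530979-4531344 had no Tcf-1 RV peak on either day, and Empty RV peaks of 0.320 and 0.366 kb on day 4 and of 0.306 and 0.328 kb on day 2. The fibroblast list thus had members in each direction, 20.8% of its genes with a gained and 12.5% with a lost region, and 3.14% of its regions gained and 1.89% lost.

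Among 20 adhesion and axon guidance genes, 10 had a lost region (50%) and 4 a gained one (20%), and 1.83% of the list's regions were gained. The lost ones were at Sema3a (3 regions), Adgrl3 and Sema3e among others, and 5.13% of the list's regions were lost, against 3.46% of all merged regions. These genes were long, with a median of 225.9 kb and 12 regions per gene, against 2 for all genes with a region. Homeobox and developmental regulators had 4 of 23 with a gained region (Meis2, Foxp1, Hoxb1 and Tbx3) and 6 with a lost one. Those with a lost one included Gli2, Gli3, Nfia and Nfib. That was 17.4% and 26.1% of the genes, whose median length was 95.9 kb. Of the list's regions, 1.87% were gained and 2.24% lost, against 2.11% and 3.46% of all merged regions. TGF-beta and BMP genes, of median length 65.4 kb, had 3 of 18 in each direction, 16.7% of the genes and 2.33% of the list's regions. The AP-1, Tead and Yap, and cell cycle lists had 1 gene in each direction, of 13, 16 and 13 (7.69%, 6.25% and 7.69%).

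Among markers of other cell types, no myeloid gene of 9 had a gained or lost region. Of 3 B cell genes with a region Ebf1 had a lost one, 3.03% of that list's regions. Emcn and Erg of 7 endothelial genes had a gained region (28.6%), as had Krt14 and Krt5 of 8 epithelial genes (25%), against 7.05% of all genes. Cdh1, an epithelial gene, had a lost one (12.5%). Gained were 2 of 36 endothelial and 2 of 35 epithelial regions (5.56% and 5.71%), against 2.11% of all merged regions. The Emcn and Krt14 regions held no summit, and the Krt14 region had a peak in day 2 Empty RV replicate 2. Of 14 housekeeping genes, Ywhaz had gained and Gapdh had lost regions, 7.14% of the list in each direction.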

How the data were processed

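The ATAC-seq lists that the authors deposited hold peak positions per library and nothing on height or significance. The deposited Tcf-1 list gives each summit a score of unstated scale (lowest 0.0579, highest 259.0). The deposited H3K27me3 and H3K9me3 files hold SICER islands of 2 libraries each, of which only positions were used. The submitters' processing notes list MACS2, Picard, STAR 2.5, Bowtie2 2.2.9, Trim Galore and FastQC without saying what each was used for. Coordinates are GRCm38 (mm10), per the same notes.

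Peaks on unplaced sequences, 112 in the 4 lists, were left out. Peaks were merged at 1 bp overlap. A region held a summit if one lay within it. It counted as marked if both replicates of the mark had an island over its midpoint. Gene positions came from a RefSeq table of GRCm38.p6 without strand, and promoter sequences from RefSeq, GRCm38.p6, with no window from chromosome 18 used here. Minus-strand windows were read as reverse complements, which 1604 of 1604 overlapping pairs of windows on both strands matched. Library values were tested by exact two-sided permutation of 2 against 2, and shares were given 95% Wilson intervals. The functions that merge and classify peaks were tested on simulated lists. Python 3.11.15, NumPy 2.4.6 and Matplotlib 3.10.9 were used.

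Depth is unknown, and list length stood in for it. Both arms carry the same replicate numbers. After removal of arm means over all 8 NIH3T3 lists, same-numbered libraries were correlated in each of 4 pairs (0.187, 0.189, 0.125 and 0.260), and the numbers were treated as pairs. Libraries of other number and the same day were correlated too (0.0648 to 0.194).

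The members, gene lists and tests were chosen with earlier results of these data known. Genes were named by a rule: the 10 with the most gained and the 10 with the most lost regions, up to 4 list members in each direction, Tcf7, and the 10 gained and 5 lost regions with the highest summit scores. Names outside it, such as other list members and the marked regions with the highest score, were chosen after their values were seen. A few genes named by the rule are not reported here. Alternatives were other merge and overlap rules, peak widths, list lengths, islands, gene windows, replicate pairs and single libraries left out.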

Additional observations from a re-analysis of the deposited data

Results flagged for a closer look

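The share of peaks in H3K9me3 islands moved in opposite directions on the 2 days. On day 4 it was 5.14% and 5.62% in Tcf-1 RV replicates 3 and 4, against 5.40% and 5.83% in Empty RV replicates 3 and 4, lower in Tcf-1 RV in both pairs (−0.262 and −0.212 points). On day 2 it was 5.73% and 5.51% in Tcf-1 RV replicates 1 and 2, against 5.50% and 5.42% in Empty RV replicates 1 and 2, higher in Tcf-1 RV in both pairs (0.238 and 0.0822 points). The day 4 difference minus the day 2 difference was −0.397 points. Permuting the day over the 4 pair differences gave an exact two-sided p of 0.333, the smallest that 2 against 2 can give. When each list was reduced to its 36583 widest peaks, the day 4 difference was −0.204 points, against −0.237 with all peaks.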

How the results depend on the processing

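Merging peaks up to 100 bp apart, asking for 50% coverage, asking for no peak within 1 kb and keeping the 36583 widest peaks of each list left the counts within 1.5 times (gained 1362 to 2171, lost 2120 to 2555). With the widest peaks 9.39% of lost regions held a summit, and the difference in median width was −7.5 bp. With peaks of at least 300 bp, 816 regions were gained and 1108 lost, with summits in 73.8% and 13.5%, and the day 2 difference of lost regions was 0.181 points. Among the 20 genes with the most called regions, this setting left none of those regions at 7 of the 10 gained and 6 of the 10 lost.

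The replicate block, which asks for 1 pair to differ and none to differ the other way, gave 13762 gained and 18412 lost regions, with summits in 33.2% and 8.80% and a day 2 difference of lost regions of 9.51 points. With both pairs required it equals the counts reported. An exact sign-flip test over the 2 pairs cannot give a p below 0.5. With summits only within 100 bp of the midpoint the shares were 52.4% and 3.69%.

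Leaving out each library in turn gave 1631 to 11785 gained and 2570 to 11782 lost regions, with summits in 32.2% to 59.8% and 4.26% to 10.5%. The day 2 difference, Tcf-1 RV minus Empty RV, was 30.1 to 62.3 points for gained and −2.30 to 12.8 points for lost regions. The difference per library was −15839.5 to 10216.5 in peaks, and in points 4.14 to 8.34 for summits, −2.51 to 5.89 for gene ends, −0.929 to 0.972 for H3K27me3, −0.477 to 0.00241 for H3K9me3 and −3.32 to 6.62 for regions open in thymocytes. With islands called in either replicate the H3K27me3 difference was −0.0296 points. The cause of these shifts was not tested. The Tcf-1 RV lists had the higher mean summit share with each library left out, with the widest peaks and with summits within 100 bp, the settings run for it. Gained regions held summits more often than lost ones in each setting given here. With 2 libraries an arm, no exact test could pass 0.05, and unstated read depth limits every absence of a peak.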

Other observations

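Summits lay to one side of the region centre. In gained regions 77.3% of summits were at a lower coordinate than the centre, with a median of −43 bp, and in regions of all 4 lists 65.6% were, with a median of −35 bp. In lost regions the values were 71.1% and −27 bp.

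Of the 10369 regions in a single Tcf-1 RV list and no Empty RV list, 97 were in replicate 3 alone. Of the 6610 in a single Empty RV list alone, 1114 were in replicate 3. Regions in both MK lists and neither JJ list numbered 6764, and those in both JJ lists and neither MK list 23. Of the peaks of Tcf-1 RV replicate 3, 99.2% overlapped one of replicate 4, while 56.2% of those of replicate 4 overlapped one of replicate 3.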
